A study of Mus musculus with 4 samples.

Results

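The E2F and retinoblastoma family was followed in RAW264.7 cells, a mouse macrophage line, after transcription had been blocked with actinomycin D. The family was taken by gene name and held 10 genes of the 41324 in the count table. They were the E2F factors E2f1, E2f2, E2f3, E2f4, E2f6, E2f7 and E2f8, the dimer partner Tfdp1 and the pocket proteins Rb1 and Rbl1. The rule itself used no measured value, although the family was picked with earlier results of these data known. All 10 genes passed the filter on low counts, with a lowest count of 180 in any library.

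Actinomycin D binds DNA and stops RNA synthesis, so the RNA that remains at later times shows how fast each transcript is lost, and the study used the course to determine mRNA lifetimes. The 4 groups were untreated cells (0 h) and cells given 10 µg/ml of the drug for 2, 4 or 6 h, with 1 library each. All groups were the same line and carried no other label of genotype or treatment. The labels name cytoplasmic RNA, depleted of ribosomal RNA before directional library preparation, and leave unsaid if each time was a culture of its own. Library totals were 35669434, 38260540, 70289647 and 12762100 counts at 0, 2, 4 and 6 h, so that the 6 h values carried the widest counting error. Of 10 macrophage markers, 9 passed the low-count filter, and their summed level was 4134 CPM (counts relative to library size) in the untreated library and 5422 CPM at 6 h, a gain that lay in Lyz2, since the other 9 summed to 2691 CPM and 2718 CPM, whereas the 4 epithelial markers were listed at 0 throughout and the T cell markers never summed above 0.250 CPM. Those other 9 moved in both directions between the untreated and 6 h libraries. Fcgr1 went from 149 to 67.9 CPM, Spi1 from 287 to 210.4 CPM and Cd14 from 624 to 520 CPM. Csf1r (1057 to 1194 CPM), Cd68 (336 to 417), Ptprc (172 to 215), Adgre1 (43.7 to 64.3) and Itgam (21.6 to 29.6) went up. Mrc1 was at 0.328 and 0.409 CPM. The part of these changes in the results below was not tested. In a bulk library, fewer cells of a type and less RNA per cell cannot be told apart.

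E2F factors control entry into S phase. E2f1, E2f2 and E2f3 are known as activators that bind DNA together with a DP partner such as the product of Tfdp1, and hypophosphorylated pocket proteins bind E2Fs and silence their target genes until cyclin-dependent kinases phosphorylate the pocket proteins. E2f4 acts mainly as a repressor with Rbl1 and its relative Rbl2, E2f6 represses without a pocket protein as part of Polycomb-type complexes, and E2f7 and E2f8 are atypical repressors that bind DNA without a DP partner and are themselves E2F targets.

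The 3′ untranslated regions (3′ UTRs) of the family are shown before the values because those of E2f2, E2f3, E2f7 and E2f8, the members with the steepest slopes below, were the ones that held both an AU-rich heptamer and a Pumilio octamer. These motifs were chosen after the values had been seen, so the match is a description with no test. The AU-rich heptamer was TATTTAT, a core bound by AU-rich element proteins such as tristetraprolin, and the Pumilio octamer was TGTANATA, the core recognised by Pumilio proteins. Both were searched only on the transcript strand, in the transcript with the longest 3′ UTR of each gene (GENCODE release 21 for mouse, mm10), and overlapping matches were counted separately. Of 9607 tested genes with a 3′ UTR, 30.4% held the heptamer, 26.5% the octamer and 12.7% both. In each line below the motif is in capitals, 10 bases stand on either side, and the sequence is read from mm10 in the direction of the transcript.
E2f2 AU-rich, chr4:136193346-136193372, plus strand: aacgcctttgTATTTATttctagttca
E2f2 Pumilio, chr4:136195501-136195528, plus strand: gaattaaactTGTAAATAggcttggaga
E2f3 AU-rich, chr13:29907795-29907821, minus strand: caatgccctaTATTTATctcatctggt
E2f3 AU-rich, chr13:29907623-29907649, minus strand: tgtgatgccgTATTTATtgttttaaga
E2f3 Pumilio, chr13:29907244-29907271, minus strand: cgtgtgtttgTGTACATAgccgttttat
E2f3 Pumilio, chr13:29907018-29907045, minus strand: tagctctgtcTGTAAATAgaatcgcagt
E2f3 Pumilio, chr13:29906678-29906705, minus strand: tgatggatttTGTAAATAgatttgttac
E2f7 AU-rich, chr10:110785260-110785286, plus strand: cctatggtatTATTTATttttgtccct
E2f7 Pumilio, chr10:110785422-110785449, plus strand: tgtggataaaTGTATATAcacgataaaa
E2f8 AU-rich, chr7:48866471-48866497, minus strand: ggaaaaaaatTATTTATaaaatgtatt
E2f8 Pumilio, chr7:48866935-48866962, minus strand: ttaacaatacTGTAAATAtttggggttt

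No other member held both motifs. E2f1 carried 3 AU-rich heptamers, of which a pair overlap, and no Pumilio octamer. Rbl1 carried 3 Pumilio octamers and E2f6 carried 1, with no AU-rich heptamer in either gene, while E2f4, Tfdp1 and Rb1 had neither motif. A site from each of E2f1, Rbl1 and E2f6 is shown for comparison with those above.
E2f1 AU-rich, chr2:154559900-154559926, minus strand: ccaagcagttTATTTATtgggaaaggg
Rbl1 Pumilio, chr2:157146055-157146082, minus strand: cttgagtcctTGTACATAtttctgtgta
E2f6 Pumilio, chr12:16825860-16825887, plus strand: gtggcgccttTGTATATAtctgtatcat

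Long 3′ UTRs hold more motifs by their length alone. The 3′ UTR was 3020 bases long in E2f2, 3328 in E2f3 and 2546 in E2f7, and among genes within 1.25 times those lengths 25.8%, 28.4% and 21.1% held both motifs. E2f8 had a 3′ UTR of 618 bases, and 4.61% of genes of similar length held both. The lengths of the others ran from 682 bases in E2f4 to 1709 bases in Rb1. The 1224 tested genes with both motifs had slopes with a median of −0.027 log2 per h, against 0.0037 in the 8383 genes without both. Slopes below that of E2f2 were found in 228 of the 1224 and in 1212 of the 8383. These 2 sets were not matched for 3′ UTR length, and a part of the motifs in the losses was not tested.

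The 3′ UTR of E2f1 is a known target of the miR-17 family of microRNAs, and its sites are shown for that reason. The mature sequence of miR-17-5p (RefSeq, GRCm38.p6, chr14:115043684-115043706, plus strand) has its seed, bases 2 to 8, in capitals, and miR-20a, miR-93 and miR-106b share that seed. The seed match searched was GCACTTT on the transcript strand, which 15.0% of tested genes with a 3′ UTR held. E2f1 held 2 matches, E2f2, E2f3, Rb1 and Rbl1 held 1 each, and the other 5 members held none.
mmu-miR-17-5p: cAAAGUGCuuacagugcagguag
E2f1 upstream match, chr2:154560202-154560228, minus strand: ggctctaactGCACTTTtggtgtcctt
E2f1 downstream match, chr2:154559687-154559713, minus strand: cctccagtctGCACTTTgatttgtttc

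Levels below are CPM on library sizes scaled by TMM, which puts the middle of all genes at the same level in every library. The median of the 10837 genes tested lay at 101% of its untreated level at each of 2, 4 and 6 h. A member above 100% was therefore higher relative to that middle, which does not show that its RNA increased. Losses are likewise relative to that middle, and a flat course does not show that no RNA was lost. At 6 h the central 90% of all genes spanned 27.3% to 163% of untreated. Percentages are given with exact 95% intervals from the counts, which cover counting error only, since no time had a replicate.

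Trends were tested with edgeR's quasi-likelihood test on all genes, and p-values were adjusted by the Benjamini-Hochberg method over all 10837. These p-values weigh each trend against the scatter of the 4 libraries about a line or a curve. edgeR estimates that scatter for each gene partly from the other genes, and no spread between replicates enters it. Genes fell or rose where the slope over time had an adjusted p under 0.05, bent upward or downward where a quadratic term was above or below 0 and passed, and were lower or higher overall where slope and bend together passed. In the family, 3 of 10 genes fell (E2f2, E2f7 and E2f8) and 0 rose, beside 17.2% and 8.63% of all genes tested. At an unadjusted p under 0.05 for the slope edgeR counted 4 falls and 1 rise, that of Rb1. That threshold was passed in either direction by 5128 of the 10837 genes. The DESeq2 Wald test, at an adjusted p under 0.05, called 0 rises in the family and 1524 over all genes. An upward bend was found in 4 members (E2f2, E2f3, E2f7 and E2f8) against 19.0% of all genes, and a downward bend in 2 (Tfdp1 and Rb1) against 12.1%. Slope and bend together put 5 members lower (E2f2, E2f3, E2f6, E2f7 and E2f8) against 36.8% of genes, and 3 higher (E2f1, Tfdp1 and Rb1) against 32.8%. The authors' own divisors moved the median gene by −0.52 log2 over 6 h against TMM. With them 7 members fell, and slope and bend together put 9 lower, beside 5039 and 7912 of the 10837 genes tested. Without the 4 h library 0 members fell, beside 399 of 10847 genes. Without the untreated library 1 did, E2f8, beside 1669 of 10838 genes.

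**Figure D1:**
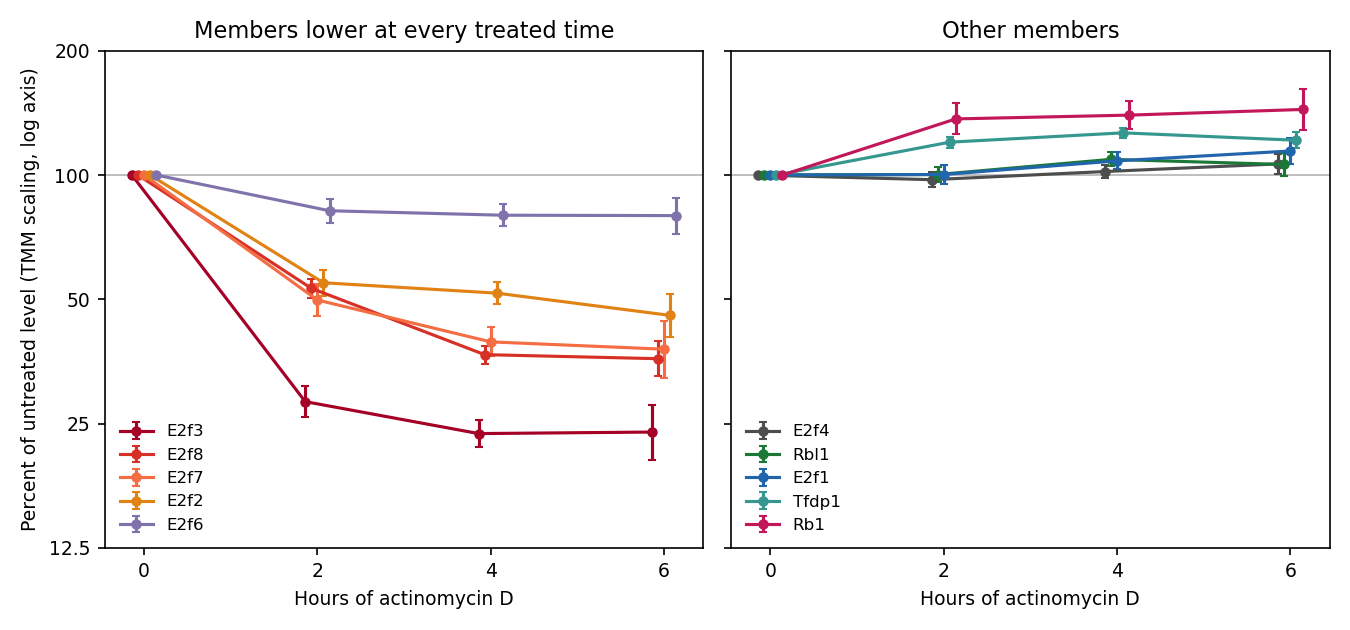
Percent of the untreated level (log axis, TMM scaling) against hours of actinomycin D for the 10 members; each point is 1 library and bars are exact 95% counting intervals. E2f3 dropped to 28.2% by 2 h and stayed near 24% after that, E2f2, E2f7 and E2f8 lay between 35.9% and 45.7% at 6 h, and the members on the right lay between 97.4% and 144%, where values above 100% for E2f1, E2f4, Rbl1 and Tfdp1 at 6 h were below 100% under the scaling to ribosomal protein genes and under the authors' divisors, and E2f6, on the left, was above its untreated level at 2 h and 4 h with total counts.

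Among the activators, relative to the median gene, E2f3 dropped to 28.2% of untreated within 2 h. On the same scale E2f2 lay between 45.7% and 54.8% at the treated times, and E2f1 was at or slightly above its untreated level. E2f3 (chr13:29906575-29986063, minus strand) had 1879, 755, 1108 and 180 counts at 0, 2, 4 and 6 h, which are levels of 61.7, 17.4, 14.6 and 14.7 CPM. The untreated library stood far above the 3 treated ones, which lay close together. The level was 28.2% of untreated at 2 h (25.9 to 30.8%), 23.6% at 4 h (21.9 to 25.5%) and 23.8% at 6 h (20.3 to 27.8%). The interval of 6 h held the value of 4 h, so that no further loss relative to the median gene was detectable at this depth. A loss shared with the median gene would not show on TMM sizes. With the authors' divisors the levels were 23.2%, 17.1% and 16.6%. A straight line described this course poorly, with a slope of −0.34 ± 0.093 log2 per h (SE, adjusted p = 0.0600), while the bend was 0.11 ± 0.015 (SE, adjusted p = 0.00105) and the joint test gave an adjusted p of 6.18e-06. E2f3 lay at the 4.08th percentile of all slopes and the 96.5th percentile of all bends. Its slope passed the test with the 2 h library left out (adjusted p = 0.0163) and with the 6 h library left out (0.0284), but not without the 4 h library (0.116), and without the untreated library it was −0.067 log2 per h (0.278). Its bend passed under every scaling tried.

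E2f2 (chr4:136172394-136196057, plus strand) had 1748, 1363, 2256 and 321 counts, or 57.4, 31.5, 29.7 and 26.2 CPM. All 3 treated libraries were below the untreated one, at 54.8% (51.0 to 58.9%), 51.7% (48.6 to 55.1%) and 45.7% (40.5 to 51.5%) of it. Most of the loss again came by 2 h. With the authors' divisors the levels were lower, at 45.1%, 37.5% and 31.9% of untreated. The slope was −0.18 ± 0.042 log2 per h (SE, adjusted p = 0.0473), the bend 0.043 (adjusted p = 0.0188), and the joint adjusted p was 8.51e-05. The slope call was close to the threshold and was lost with total counts (adjusted p = 0.0762), with ribosomal protein scaling (0.0515), without the untreated library (0.147) and without the 4 h library (0.106).

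E2f1 (chr2:154559407-154569892, minus strand), the founding member of the family, did not share the loss of E2f2 and E2f3, and its intervals lay clear of theirs at every treated time. Its counts were 2405, 3430, 6492 and 1105, or 79.0, 79.2, 85.5 and 90.3 CPM. The 2 h level was 100.3% of untreated (95.2 to 106%), and the 4 h and 6 h levels were 108% (103 to 113%) and 114% (106 to 123%). The slope of 0.034 ± 0.013 log2 per h did not pass (SE, adjusted p = 0.109), and the joint test put E2f1 higher (adjusted p = 0.0181), a direction that turned lower under ribosomal protein scaling and under the authors' divisors and a call that was lost without the rRNA-like genes in the totals (adjusted p = 0.160). With the divisors the levels were 82.4%, 78.4% and 79.9%, and the interval at 6 h (74.3 to 85.8%) lay far above that of E2f3 or E2f2 on the same scale.

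On the TMM scale the repressors E2f4 and E2f6 lay between 79.7% and 106% of their untreated levels. E2f4 (chr8:105297663-105305370, plus strand) had 3918, 5429, 9964 and 1675 counts, or 129, 125, 131 and 137 CPM. Its levels were 97.4%, 102% and 106% of untreated, and the slope of 0.017 ± 0.013 log2 per h (SE, adjusted p = 0.337) and the joint test (adjusted p = 0.114) did not pass. Under the divisors E2f4 lay at 80.1%, 73.9% and 74.3%, with a slope of −0.070, and the joint test called it lower there (adjusted p = 0.000209) and under ribosomal protein scaling (0.000406). E2f6 (chr12:16810963-16839742, plus strand) had 1623, 1891, 3235 and 520 counts, or 53.3, 43.7, 42.6 and 42.5 CPM. After a drop to 81.9% (76.6 to 87.6%) by 2 h its level was flat, at 79.9% at 4 h and 79.7% (72.1 to 88.1%) at 6 h. The slope of −0.051 ± 0.021 log2 per h did not pass (SE, adjusted p = 0.126), whereas the joint test put E2f6 lower (adjusted p = 0.00386). With total counts the E2f6 changes at 2 h and 4 h turned to 0.12 and 0.016 log2, and the joint call was lost (adjusted p = 0.357).

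The atypical repressors E2f7 and E2f8 both fell, with losses up to 2 h and again up to 4 h. E2f8 (chr7:48866429-48881596, minus strand) had 3328, 2516, 3048 and 480 counts, or 109, 58.1, 40.1 and 39.2 CPM. That was 53.2% of untreated at 2 h (50.5 to 56.0%), 36.7% at 4 h and 35.9% at 6 h (32.6 to 39.5%). The 4 h and 6 h libraries were alike and both lay below the 2 h library. E2f8 fell with a slope of −0.25 ± 0.046 log2 per h (SE, adjusted p = 0.0323), bent upward (0.055, adjusted p = 0.000257) and had the smallest joint adjusted p of the family, 2.35e-07.

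E2f7 (chr10:110745439-110787384, plus strand) had 1210, 857, 1190 and 184 counts, or 39.7, 19.8, 15.7 and 15.0 CPM. Its levels of 49.8% (45.6 to 54.4%), 39.4% and 37.8% (32.2 to 44.2%) had intervals that overlapped those of E2f8 at each time. The slope of E2f7 was −0.23 ± 0.051 log2 per h (SE, adjusted p = 0.0421) and its bend 0.059 (adjusted p = 0.00252). Without the 4 h library the slope calls of E2f7 (adjusted p = 0.0907) and E2f8 (0.0584) were lost, and without the untreated library that of E2f7 (0.0617) was lost too. Exons of E2f7 and E2f8 overlap those of 1700020G17Rik and Gm2788 on the opposite strand, and the sources used here do not state if counting used the strand.

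The partner Tfdp1 and the pocket proteins lay at or above their untreated levels on the TMM scale. Tfdp1 (chr8:13338751-13378448, plus strand), which encodes the DP1 subunit, had 6200, 10590, 19566 and 3024 counts, or 204, 245, 258 and 247 CPM. Its levels of 120% (116 to 124%), 127% (123 to 130%) and 121% (116 to 127%) were all above untreated. The slope of 0.046 ± 0.021 log2 per h did not pass (SE, adjusted p = 0.151), the downward bend did (−0.020, adjusted p = 0.00608), and the joint test put Tfdp1 higher (adjusted p = 0.000326). That call was lost under ribosomal protein scaling (adjusted p = 0.262), and under the divisors Tfdp1 was lower (0.00338). Without the 6 h library Tfdp1 passed as a rise, with a slope of 0.086 log2 per h (adjusted p = 0.0433).

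Rb1 (chr14:73183673-73325822, minus strand), the retinoblastoma gene itself, had the highest slope of the family. Its counts were 796, 1548, 2773 and 461, or 26.1, 35.8, 36.5 and 37.7 CPM. The 3 treated libraries lay together at 137% (125 to 149%), 140% (129 to 151%) and 144% (128 to 162%), all above the untreated library. The slope of 0.080 ± 0.030 log2 per h did not pass (SE, adjusted p = 0.105), the bend was −0.026 (adjusted p = 0.0431), and the joint test put Rb1 higher (adjusted p = 0.00174). On the authors' divisors the levels were 112%, 101% and 101%, the slope was −0.0066, and the calls of the bend (adjusted p = 0.369) and the joint test (0.454) were lost. Ribosomal protein scaling ended both calls too (0.309 and 0.184), and leaving the rRNA-like genes out of the totals ended that of the bend (0.0543). Exons of Rb1 overlap Rcbtb2 and Lpar6 on the opposite strand, with 492, 803, 1419 and 190 counts for Rcbtb2 and 136, 354, 660 and 154 for Lpar6. On TMM sizes Rcbtb2 was at 16.2, 18.5, 18.7 and 15.5 CPM and Lpar6 at 4.47, 8.18, 8.69 and 12.6 CPM, and reads of these genes may be shared if strand was not used.

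Rbl1 (chr2:157145893-157204534, minus strand), which encodes the pocket protein p107, had 3342, 4766, 9097 and 1424 counts, or 110, 110, 120 and 116 CPM. Its levels were 100.3%, 109% (105 to 114%) and 106% (99.6 to 113%) of untreated, so that only the 4 h interval lay clear of the untreated level. The slope was 0.019 ± 0.014 log2 per h (SE, adjusted p = 0.313) and the joint adjusted p was 0.195. With the divisors Rbl1 lay at 82.4%, 79.1% and 74.1%.

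**Figure D2:**
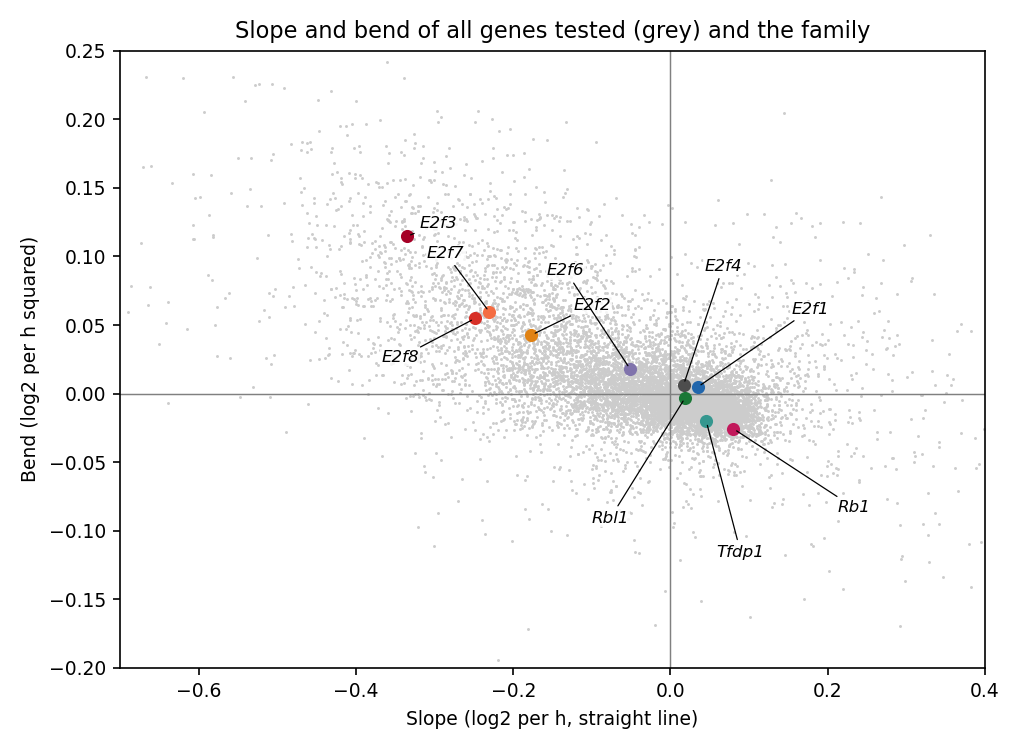
Slope (log2 per h of a straight line) against bend (quadratic term, log2 per h squared) for all 10837 genes tested (grey, TMM scaling) and the 10 members (coloured); 87 genes lie outside the axes. E2f3, E2f8, E2f7 and E2f2 sit at the upper left, with slopes from −0.34 to −0.18 and upward bends, and Rb1 sits at the lower right with a slope of 0.080, which was −0.0066 under the authors' divisors, where Tfdp1, E2f1, Rbl1 and E2f4 also had slopes below 0.

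Taken step by step, E2f2, E2f3, E2f6, E2f7 and E2f8 each lost most by 2 h and differed in the loss after that. From 0 to 2 h the log2 step was −1.82 in E2f3 (−1.95 to −1.70), −1.01 in E2f7 (−1.13 to −0.88), −0.91 in E2f8 (−0.99 to −0.84), −0.87 in E2f2 (−0.97 to −0.76) and −0.29 in E2f6 (−0.38 to −0.19). Only E2f3 was beyond the lowest 5% of all genes, which began at −1.36. From 2 to 4 h the largest loss was in E2f8, at −0.53 (−0.61 to −0.46). E2f7 followed at −0.34 (−0.46 to −0.21) and E2f3 at −0.26 (−0.39 to −0.12). None of these was beyond the lowest 5% of all genes, which began at −0.62 in this step. The steps of E2f2 (−0.084) and E2f6 (−0.036) had intervals that included 0. From 4 to 6 h only E2f2 (−0.18, −0.35 to −0.0097) and Tfdp1 (−0.060, −0.12 to −0.0044) had steps below 0 by their intervals, and those of E2f3, E2f7 and E2f8 were 0.012, −0.059 and −0.033 with intervals that included 0. Rb1 reached its higher level in the step to 2 h, at 0.45 log2 (0.33 to 0.58), and the later steps were 0.030 and 0.046.

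These unequal losses changed the make-up of the family's RNA. Between genes, levels were compared only as CPM per kilobase of annotated exon. Untreated cells held the most Tfdp1 (55.5 CPM per kb) and E2f4 (52.5), then E2f1 (25.0), E2f8 (20.1) and Rbl1 (18.3), then E2f2 (11.8), E2f3 (11.4) and E2f6 (9.41), and the least E2f7 (4.41) and Rb1 (4.35). Neighbours whose counting intervals overlapped were Tfdp1 with E2f4, E2f2 with E2f3, and E2f7 with Rb1. At 6 h the order was Tfdp1 (67.4 CPM per kb), E2f4 (55.8), E2f1 (28.6), Rbl1 (19.4), E2f6 (7.51), E2f8 (7.21), Rb1 (6.27), E2f2 (5.38), E2f3 (2.71) and E2f7 (1.67). Of these, E2f6 overlapped E2f8, E2f8 overlapped Rb1, and Rb1 overlapped E2f2, while E2f1 stood clear of the other activators. E2f8 went from above Rbl1 in the untreated library to below it in all 3 treated libraries. By the length of the single transcript used for the 3′ UTRs in place of all exons, E2f6 was 22.0 CPM per kb in untreated cells, above E2f2, and E2f8 (29.6) was above E2f1 (28.9).

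**Figure D3:**
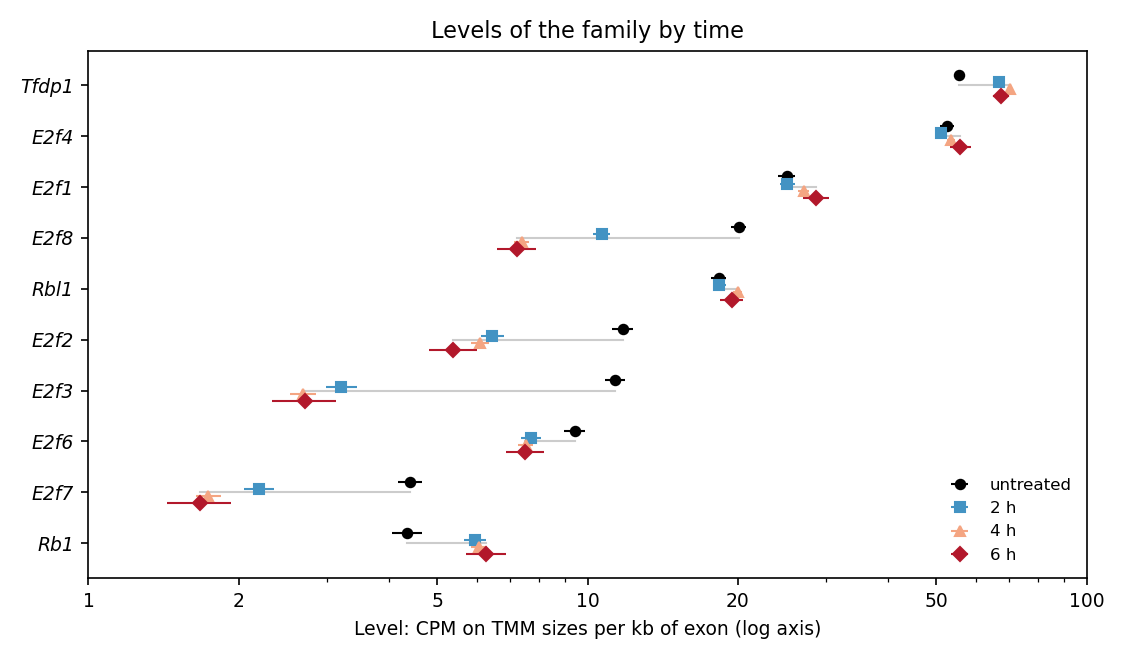
Level of each member in CPM on TMM sizes per kilobase of exon (log axis), with 1 point per library and bars of exact 95% counting intervals. The points of E2f8, E2f2, E2f3 and E2f7 spread to the left with treatment, E2f3 from 11.4 to 2.71, while Tfdp1, E2f4, E2f1 and Rbl1 stayed within a narrow range on this scale.

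The authors' deposited table gives a half-life and a fit for each gene. Recomputation returned all 14957 of these half-lives (relative tolerance 1e-06) as a line through 0 over the 0, 2 and 4 h values on the authors' divisors, so the 6 h library does not enter them. In the authors' deposited table E2f3 had the shortest half-life of the family, 1.39 h (R2 of 0.949), followed by E2f8 at 1.99 h, E2f7 at 2.04 h and E2f2 at 2.51 h. By recomputation this R2 is measured about 0 and not about the mean, so 0.949 does not show that a line described the course of E2f3 well. The same authors' deposited table gives 4.66 h for E2f6, 8.37 h for E2f4, 10.2 h for E2f1, 10.4 h for Rbl1 and 37.0 h for Tfdp1. For Rb1 the authors' deposited table lists −49.5 h with an R2 of 0.286, a negative value that is no lifetime. Negative values occur for 14.6% of the 14957 genes with a half-life there and for 9.12% of those tested here. With negative values ranked beyond the longest, as no measured loss, the median in the authors' deposited table was 8.56 h over the genes tested here. E2f2, E2f3, E2f6, E2f7 and E2f8 lay under it, E2f4 lay just under it, and E2f1, Rbl1 and Tfdp1 lay over it.

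Those lifetimes moved with the scaling and with the times used. With the 6 h library in the same line, half-lives were 1.87 h for E2f3, 2.54 h for E2f8, 2.63 h for E2f7 and 3.14 h for E2f2, longer than the values deposited. On TMM sizes at 0, 2 and 4 h they were 1.67, 2.63, 2.71 and 3.61 h in the same order of genes, and E2f6 went to 10.7 h. The order of these 5 genes was the same in all 3 versions. The half-lives of E2f1, E2f4, Rbl1 and Tfdp1 turned negative on TMM sizes, so none could be given for them on that scale.

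**Figure D4:**
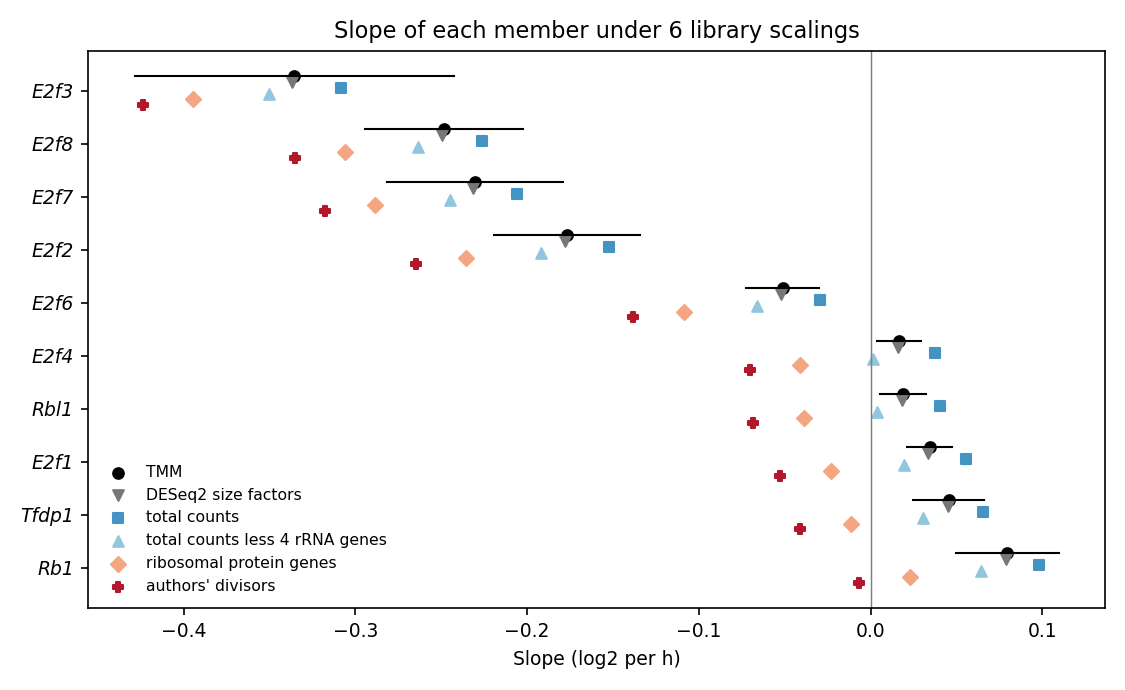
Slope of each member (log2 per h) under TMM, with its standard error as a bar, and under 5 other library scalings. The slopes of E2f3, E2f8, E2f7, E2f2 and E2f6 were below 0 under all 6, whereas those of E2f4, Rbl1, E2f1 and Tfdp1 changed sign under the ribosomal protein scaling and the authors' divisors, and that of Rb1 under the divisors.

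The relatives E2f5, Tfdp2 and Rbl2, which stand outside the list of 10, lay between 83.3% and 129% of their untreated levels. E2f5, a repressor close to E2f4, had 303, 359, 732 and 124 counts, with 83.3%, 96.9% and 102% of untreated and a slope of 0.014 log2 per h (adjusted p = 0.773). Tfdp2, the other DP partner, was at 126%, 129% and 129% and was higher by the joint test (adjusted p = 0.00364), a call lost under ribosomal protein scaling (adjusted p = 0.701) and the divisors (0.132). Rbl2, the pocket protein that works with E2f4 in resting cells, was at 96.2%, 101% and 90.6% with a slope of −0.018 log2 per h (adjusted p = 0.543). None of the 3 passed the slope test.

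Genes with courses most like E2f3 and Rb1 were sought among 7646 non-member genes with a mean of at least 10 CPM, by the root mean square difference of the log2 changes at the 3 treated times. E2f3 had both the steepest slope and the largest bend of the family, and nearest to it were Cd300lb (difference 0.067, with 28.5%, 21.9% and 23.6% of untreated), Zfp111 (0.097) and Arid3a (0.10). Nearest to Rb1, the member with the highest slope, were Tbc1d32 (0.019, with 139%, 139% and 141%), Hddc2 (0.020) and Ndufs4 (0.022). With 3 values per gene, such likeness says little beyond the shape of the course.

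Upstream of the pocket proteins, the cyclins, kinases and inhibitors that set their phosphorylation showed 7 falls and 2 rises among 19 tested of 22 listed, where 17.2% of all genes fell and 8.63% rose, with a median slope of −0.066 log2 per h beside 0.0014 over all genes. The steepest falls were Cdkn2d, which encodes an inhibitor of Cdk4 and Cdk6 (slope −0.26, adjusted p = 0.0295, 35.5% of untreated at 6 h), Fzr1, an activator of the anaphase-promoting complex (−0.22, adjusted p = 0.0145, 40.2%), and Cdc25a, the phosphatase that activates Cdk2 (−0.21, adjusted p = 0.0420, 41.3%). The other falls were Cdk7, Ccna2, Cdkn2c and Ccne1. Slope and bend together put 10 of the 19 lower and 8 higher, beside 36.8% and 32.8% of all genes. Cdk6, a kinase of the retinoblastoma protein, rose (0.11, adjusted p = 0.0180, 163%), as did its partner Ccnd2 (0.099, adjusted p = 0.0473, 148%), and both calls were lost with total counts, with the divisors and without the 4 h library. The abundant Ccnd1 (125% at 6 h, adjusted p = 0.0524) and Cdk4 (130%, adjusted p = 0.0764) did not pass. The inhibitor genes Cdkn2a, Cdkn2b and Cdkn1c were listed at 0 in all libraries, which allows up to 0.0985 CPM in the untreated library and 0.245 CPM at 6 h.

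The MuvB core binds E2f4 with Rbl1 or Rbl2 as the DREAM repressor and joins B-Myb and FoxM1 later in the cycle. The list held 9 genes, all tested, with Mybl1, Mybl2, Foxm1 and Dyrk1a beside the core. Of these 9, 5 fell and 0 rose, beside the same 17.2% and 8.63% of all genes, with a median slope of −0.099 log2 per h. Of the core genes Lin9, Lin37, Lin52, Lin54 and Rbbp4, only Lin9 and Lin54 fell. The count of rises was also 0 at an unadjusted p under 0.05 in edgeR, which 5128 of the 10837 genes passed in either direction. It was 1 with the DESeq2 Wald test at an adjusted p under 0.05, beside 1524 rises over all genes. By the joint test 5 were lower and 1 higher, beside 36.8% and 32.8% of all genes. Dyrk1a, the kinase that promotes DREAM assembly, fell most (−0.32, adjusted p = 0.0342, 26.4% at 6 h), followed by Lin9, a MuvB subunit (−0.22, adjusted p = 0.0335, 39.8%), and Mybl2, which encodes B-Myb (−0.20, adjusted p = 0.0179, 44.9%). Foxm1 (−0.075, adjusted p = 0.0290, 74.1%) and Lin54 fell less. With total counts 2 falls were left, those of Dyrk1a and Lin9. The call of Foxm1 was also lost without the 2 h or the 4 h library. That of Dyrk1a was lost without the 4 h library, and that of Lin9 without the untreated or the 4 h library. Rbbp4, a histone-binding subunit and the most abundant gene of the list, did not pass (128% at 6 h, adjusted p = 0.130).

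Chromatin partners that E2Fs and pocket proteins recruit showed 8 falls and 1 rise among 29 tested, beside 17.2% and 8.63% of all genes. Their median slope was −0.0070 log2 per h. The joint test put 13 lower and 9 higher, beside 36.8% and 32.8% of all genes. Falls were led by Sap30 (−0.35, adjusted p = 0.0145, 23.7% at 6 h) and Sin3a (−0.33, adjusted p = 0.0145, 25.6%), which encode subunits of Sin3 deacetylase complexes, and by the acetyltransferase gene Ep300 (−0.23, adjusted p = 0.0363, 38.4%). Other genes of those complexes did not pass, with 96.4% at 6 h for Sin3b, 114% for Suds3, 123% for Hdac1, 121% for Hdac2 and 138% for Rbbp7. Hdac3 rose (0.071, adjusted p = 0.0428, 133%) but had a slope of −0.016 under the divisors, and the call was lost without the untreated, the 2 h or the 4 h library. Smarca4, the ATPase of the SWI/SNF complex (109%, adjusted p = 0.219), and Hcfc1 (105%, adjusted p = 0.543) were the most abundant and did not pass.

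Among known E2F target genes of replication and mitosis, 27 fell and 1 rose of 84 tested, against 17.2% and 8.63% of all genes, with a median slope of −0.025 log2 per h. By slope and bend together 41 were lower and 30 higher, beside the 36.8% and 32.8% of all genes. Among targets past the slope test, the steepest fall was that of Cdt1, the licensing factor (−0.46, adjusted p = 0.0151, 14.9% at 6 h). Then came Ccnf (−0.44, adjusted p = 0.0206, 16.4%) and Gins3, a subunit of the replicative helicase (−0.33, adjusted p = 0.0340, 25.8%). Fbxo5 (−0.34, 23.4%) and Wee1 (−0.34, 24.8%) did not pass that test (adjusted p = 0.136 and 0.0770). The joint test put both lower (adjusted p = 0.000104 and 2.03e-07). Bub1, a spindle checkpoint kinase, was the single rise (0.065, adjusted p = 0.0396, 133%), with a slope of −0.022 under the divisors, and this call was lost when the untreated, 2 h or 4 h library was left out. The abundant Top2a fell (71.1% at 6 h, adjusted p = 0.0331) and Dnmt1 did not pass (91.3%, adjusted p = 0.272). The Top2a call was lost with total counts and without the 2 h, the 4 h or the 6 h library. Ccna2, Ccne1, Ccne2 and Cdc25a stand both here and among the cyclins, and Foxm1, Mybl1 and Mybl2 both here and in the MuvB list, so these counts are not independent. Without the 4 h library, falls were called for 1 of the cyclin list, 1 of the MuvB list, 3 of the chromatin partners and 9 of the targets. Over all genes, 399 of 10847 fell in that setting. The calls of Cdkn2d, Cdc25a, Ep300 and Gins3 were among those lost. Without the untreated library 3 of the MuvB list fell, beside 1669 of 10838 genes. Without the 2 h library 5 of the chromatin partners did, beside 1970 of 10787 genes.

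**Figure D5:**
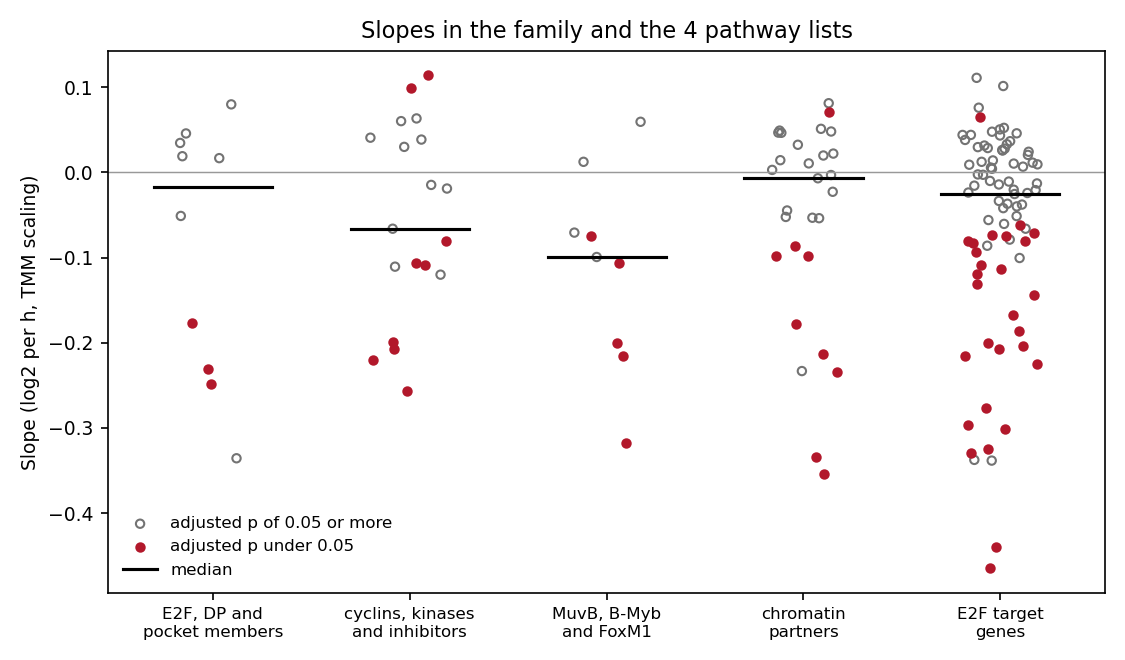
Slope (log2 per h, TMM scaling) of each tested gene in the family and in the 4 pathway lists; filled red points passed the slope test, open grey points did not, and lines are medians. The medians were −0.017 in the family, −0.066 in cyclins, kinases and inhibitors, −0.099 in the MuvB list, −0.0070 in chromatin partners and −0.025 in target genes; the rises of Hdac3 and Bub1 turned below 0 under the authors' divisors.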

How the data were processed

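RNA-seq of 4 libraries of RAW264.7 cells, 1 at each of 0, 2, 4 and 6 h of actinomycin D, was analysed, and libraries were placed in time by the treatment in their labels. The submitters' processing notes name STAR 2.5.3a for reads on mm10 and featureCounts and Subread (1.6.3). Neither annotation nor strand setting is known from these sources. The deposited raw counts per gene were used as they stand. The normalized signal of the authors was found by recomputation to be the count divided by 1 whole number per library (1300, 2250, 4476 and 748), of unknown origin. The authors' half-life and R2 were taken as scores, both from the deposited table.

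Genes with a mean CPM of at least 1 (10837) entered edgeR 4.0.16 (R 4.3.3) with TMM factors, the quasi-likelihood test and Benjamini-Hochberg adjustment over all of them. The slope left 2 residual degrees of freedom and the bend, a quadratic term, 1. The direction of the joint test came from the fitted changes at 2, 4 and 6 h summed. Changes relative to untreated had exact conditional binomial 95% intervals, levels per kilobase exact Poisson ones, and 3 counts was the upper limit taken for a 0. Columns not matched to a sample numbered 0.

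Exon lengths and 3′ UTRs came from GENCODE release 21 on mm10, matched by symbol, and microRNAs from RefSeq. The text names all 10 members, E2f5, Tfdp2 and Rbl2, the 3 steepest falls and rises past the slope test and the 2 most abundant genes of each list, and the 3 genes nearest to the members with the steepest slope, the highest slope and the largest bend. Other genes that fell in lists of up to 7 falls, and some genes that did not pass, are named too, after their values were seen. Members and gene lists were chosen with earlier results of these data known. Alternatives were DESeq2 size factors, total counts with and without 4 rRNA-like genes, scaling to 76 ribosomal protein genes, the authors' divisors, no filter, a mean CPM of at least 5, a prior count of 2 in place of 0.5, each library left out, and the DESeq2 1.42.0 Wald test. Half-lives with the 6 h library or on TMM sizes, levels per transcript length, and the alternatives for the named list genes were added after the data were seen.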

Additional observations from a re-analysis of the deposited data

How the results depend on the processing

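No paired analysis was possible because each time had 1 library and the labels give no replicate numbers that groups share. Bends and joint tests could not be refitted with a library left out, since no residual degrees of freedom remain. With 1 library per time, depth limits the 6 h values most. E2f2, E2f3, E2f7 and E2f8 kept the sign of slope, bend and joint test under every alternative run, and E2f6 that of slope and joint test, while the sign of E2f1, E2f4, Rbl1 and Tfdp1 followed the scaling. The cause of these shifts was not tested. Against TMM the median gene moved over 6 h by 0.13 log2 with total counts, −0.090 without the 4 rRNA-like genes, −0.34 with ribosomal protein scaling and −0.52 with the divisors.

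Counts of members moved as follows. Falls (3) were 7 with the divisors and 0 to 4 over the libraries left out, and rises (0) were 0 to 1 over them. Upward bends (4) were 1 with total counts and 7 with ribosomal protein scaling and with the divisors, and bends of E2f2 (adjusted p = 0.734), E2f7 (0.241) and E2f8 (0.322) were the calls lost with total counts. Downward bends (2) were 1 without the rRNA-like genes and 0 with ribosomal protein scaling and with the divisors. Members lower overall (5) were 8 with ribosomal protein scaling and 9 with the divisors, and members higher overall (3) were 0 with both.

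For all genes, falls (1859) were 5039 with the divisors and 399 to 2354 over libraries left out. Rises (935) were 207 with total counts, 334 without the rRNA-like genes, 137 with ribosomal protein scaling, 78 with the divisors, 561 with no filter, 1524 with the DESeq2 Wald test and 34 to 1295 over libraries left out. Upward bends (2056) were 697, 3477 and 3320, and downward bends (1312) 4924, 119 and 71, with total counts, ribosomal protein scaling and the divisors. Genes lower overall (3990) were 6320 and 7912, and higher overall (3558) 639 and 276, with ribosomal protein scaling and the divisors.

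In the cyclin list falls (7) were 4 with total counts, 12 with the divisors and 1 to 8 over libraries left out, and rises (2) were 0 with total counts and the divisors, 1 without the rRNA-like genes, with ribosomal protein scaling and with no filter, 4 with the DESeq2 Wald test, and 0 to 3 over libraries left out. In the MuvB list falls (5) were 2 with total counts and 1 to 5 over libraries left out, and rises (0) were 1 with the Wald test and 0 to 1 over libraries left out. For chromatin partners falls (8) were 5 with total counts, 18 with the divisors and 3 to 8 over libraries left out, and the 1 rise became 0 with total counts, without the rRNA-like genes, with ribosomal protein scaling, the divisors and no filter, 2 with the Wald test and 0 to 4 over libraries left out. For targets falls (27) were 13 with total counts, 51 with ribosomal protein scaling, 74 with the divisors and 9 to 34 over libraries left out. The 1 target rise became 2 with DESeq2 size factors and with the filter at 5 CPM, 0 with total counts, without the rRNA-like genes, with ribosomal protein scaling, the divisors and no filter, 5 with the Wald test and 0 to 12 over libraries left out.

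Sign changes are grouped here by setting, and log2 changes are included only where their counting interval under TMM excluded 0. With the authors' divisors the slopes (log2 per h) were −0.053 for E2f1, −0.070 for E2f4, −0.041 for Tfdp1, −0.0066 for Rb1, −0.068 for Rbl1, −0.074 for E2f5, −0.029 for Tfdp2, −0.022 for Bub1, −0.027 for Ccnd1, −0.024 for Cdk4, −0.076 for Hcfc1, −0.016 for Hdac3, −0.028 for Rbbp4 and −0.065 for Smarca4. With the authors' divisors the bends were 0.012 for Rbl1 and 0.0085 for Rbl2. With the authors' divisors the summed fitted changes (log2) were −0.93 for E2f1, −1.17 for E2f4, −0.40 for Tfdp1, −1.0 for Rbl1 and −0.26 for Tfdp2. With the authors' divisors the log2 change at 2 h was −0.019 for Tfdp1. With the authors' divisors the log2 changes at 4 h were −0.35 for E2f1, −0.13 for Tfdp1, −0.34 for Rbl1 and −0.10 for Tfdp2. With the authors' divisors the log2 changes at 6 h were −0.32 for E2f1, −0.43 for E2f4, −0.24 for Tfdp1 and −0.15 for Tfdp2. With ribosomal protein scaling the slopes (log2 per h) were −0.023 for E2f1, −0.041 for E2f4, −0.011 for Tfdp1, −0.039 for Rbl1, −0.045 for E2f5, −0.047 for Hcfc1 and −0.035 for Smarca4. With ribosomal protein scaling the bends were 0.011 for Rbl1 and 0.0078 for Rbl2. With ribosomal protein scaling the summed fitted changes (log2) were −0.56 for E2f1, −0.80 for E2f4, −0.033 for Tfdp1 and −0.63 for Rbl1. With ribosomal protein scaling the log2 changes at 4 h were −0.22 for E2f1 and −0.21 for Rbl1. With ribosomal protein scaling the log2 changes at 6 h were −0.16 for E2f1, −0.26 for E2f4 and −0.070 for Tfdp1. With total counts the slope (log2 per h) was 0.0040 for Rbl2. With total counts the bends were −0.032 for E2f1, −0.030 for E2f4, −0.018 for E2f6 and −0.015 for E2f5. With total counts the summed fitted changes (log2) were 0.69 for E2f5 and 0.72 for Rbl2. With total counts the log2 changes at 2 h were 0.12 for E2f6 and 0.14 for E2f5. With total counts the log2 change at 4 h was 0.016 for E2f6. Without the 4 rRNA-like genes the slopes (log2 per h) were −0.0013 for E2f5 and −0.0046 for Hcfc1. Without the 4 rRNA-like genes the summed fitted change (log2) was −0.047 for E2f4. Over the libraries left out the slope ran from −0.0098 to 0.075 for E2f5, from −0.024 to 0.0032 for Rbl2 and from −0.0048 to 0.021 for Hcfc1. On TMM sizes the half-lives (h) were −43.1 for E2f1, −540 for E2f4, −10.6 for Tfdp1, −39.0 for Rbl1 and −9.37 for Tfdp2.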
